A study of Mus musculus with 4 samples.

Results

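A set of 453 wide CTCF binding sites was listed in mouse liver at ZT0 with no counterpart in the list of ZT12. The sites were chosen by 2 measured properties, namely a width of at least 379 bp in the ZT0 list and the lack of any ZT12 site overlapping by 1 bp or more, and only autosomal sites were taken. They made up 17.9% of the 2532 autosomal ZT0 sites of that width, 4.51% of the 10038 autosomal ZT0 sites and 4.48% of the 10113 ZT0 sites in all. Absence means that no site was listed, not that CTCF was shown to be unbound. The lists are named for a motif search and need not hold every site called at a time point, so absence and all shares refer to these lists alone. The sites are called absent sites here, and the 2079 sites of the same width that did overlap one of the 6799 ZT12 sites are called shared sites.

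CTCF was assayed by ChIP-seq, which pulls down protein-bound DNA fragments with an antibody and sequences them, and a site is a stretch of the genome where these reads exceed the background. The livers came from wild-type male C57BL/6 mice aged 8 weeks, kept in cycles of 12 h of light and 12 h of darkness with food always present. One group was taken at ZT0, when the lights come on, and the other at ZT12, the time of lights off, and each has 2 biological replicates. Each time point has 1 list of positions for both replicates, without a score, strand or replicate of origin. The spread between animals could therefore not be measured, no test over samples was possible, and the read depth behind a site is unknown. Sites are not replicates of a time point either, so the intervals given with shares (95% Wilson), with medians (95%, from order statistics) and with differences between them describe counting error only. Positions cannot be set against liver marker genes, and the tissue is taken from the labels.

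CTCF is a DNA-binding protein with a row of zinc fingers that read a long, oriented motif rich in G and C. Together with the ring-shaped cohesin complex it marks the ends of chromatin loops and the borders of domains, and loops tend to form between motifs that point towards each other. Its binding is blocked at some sites by methylation of CpG dinucleotides within the motif.

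The absent sites were narrower than the shared ones within the chosen range, which is a description because width chose them. Their median width was 420 bp, with quartiles of 397 and 453 bp, against 439 bp for the shared sites. The widest absent site measured 1162 bp and the widest shared site 1759 bp. Sites under 450 bp made up 74.0% of the absent and 55.7% of the shared sites. Read the other way, 335 of 1494 sites under 450 bp were absent at ZT12 (22.4%), 81 of 698 sites from 450 bp to under 550 bp (11.6%) and 37 of 340 sites of 550 bp or more (10.9%). Over autosomal ZT0 sites of every width, 43.6% had no ZT12 site overlapping. At the minimum width of 379 bp itself there were 4 absent and 15 shared sites, and at 378 bp, just outside the rule, 13 absent and 26 shared. The overlap criterion left a clear gap, since the smallest overlap of any shared site was 129 bp and the median was 324 bp.

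The absent sites were mostly far from any ZT12 site. The distance from the edge of an absent site to the nearest ZT12 site had a median of 44.5 kb, with quartiles of 11.0 and 110 kb. It was at most 500 bp for 5 absent sites, at most 1 kb for 13 and at most 10 kb for 105, while 15 sites lay more than 500 kb away. From the shared sites, the nearest ZT12 site other than those overlapping was a median of 34.2 kb away, with quartiles of 10.1 and 89.6 kb. These distances belong to the same contrast as the rule and are given without a test.

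Searched over whole sites of all widths, the CTCF motif did not differ detectably in frequency or strength between absent and shared sites. It was scored with a matrix of 19 bp learned on the 7506 narrower autosomal ZT0 sites, which include none of the sites compared, and the score is a log-odds value in bits. The bases with the highest log-odds weight at each position of the matrix read TGGCCACCAGGGGGCGCCA. At a p of 0.0001 per position, or 7.83 bits, 450 of the 453 absent sites held a match (99.3%, 98.1 to 99.8%) and 2072 of the shared sites (99.7%, 99.3 to 99.8%). Of equally long regions 5 kb from the absent sites, 20.3% held one. The label of the lists names a motif search, so holding a motif may itself be a condition for being listed. At a stricter p of 1e-05, or 12.9 bits, 408 absent sites held a match (90.1%, 87.0 to 92.5%), against 91.6% of the shared sites and 89.2% of all autosomal ZT0 sites, in part those on which the matrix was learned. The difference of absent minus shared sites was -1.52 percentage points, with an interval of -4.81 to 1.22 (Newcombe) that includes 0. The best score per site had a median of 18.9 bits in the absent sites (18.5 to 19.3) and of 19 bits in the shared sites (18.7 to 19.2). Their difference was -0.0186 bits (-0.564 to 0.44). In 200 bp around the midpoint, the medians were 17.8 bits in the absent sites (17.3 to 18.7) and 18.2 bits in the shared sites (18 to 18.4). This stretch is equally long in all sites, but fewer wide than narrow sites hold a match in it, so the comparison still depends on width. A match lay in this stretch in 392 absent sites (86.5%, 83.1 to 89.4%) and 89.4% of the shared sites (88.0 to 90.6%), a difference of -2.84 percentage points (-6.51 to 0.328). Over all autosomal ZT0 sites, most of them narrower, the share was 95.3%. The share was lower in the absent than in the shared sites under 450 bp (-3.27 points, -6.8 to -0.512) and at 450 bp or more (-11.3 points, -20.4 to -3.35). From 450 to under 550 bp the interval included 0 (-5.38 points, -14.5 to 0.58). At 550 bp or more 32.4% of the absent and 58.4% of the shared sites held one, and the median score in this stretch was lower too (-10.9 bits, -15.3 to -5.19). That score did not differ detectably under 450 bp (0.031 bits, -0.909 to 0.639) or from 450 to under 550 bp (0.0339 bits, -1.92 to 1.51). At transcription starts the scores of whole sites also differed, as given below. The seed from which the matrix was started, CCAGCAGAGGGC, occurred in 16 absent sites (3.53%), 3.85% of the shared sites and 3.62% of all autosomal ZT0 sites.

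Base by base, the best matches of absent and shared sites had the same most frequent base at 18 of 19 positions. Positions are counted from 1 at the 5′ end of the match as printed, on the strand on which it reads like the matrix. The C at position 5 was present in 98.9% of the 450 absent sites with a match, the G at position 10 in 99.3% and the G at position 13 in 98.9%. Positions 1 and 19 were variable, with T in 43.8% and A in 36.7% of the matches.

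To show the sequence of the strongest matches of both kinds, the mm9 sequence of 120 bp around the best match is given for 3 absent and 3 shared sites. They have the highest scores among the sites that contain the whole 120 bp with no annotated exon in it, and the shared ones were chosen after their values had been seen. All 6 were picked by the score of the same matrix, so their likeness follows from the choice. Capitals mark the match of 19 bp, and each sequence is written 5′ to 3′ on the strand of the match. The absent site chr2:180081857-180082316 (minus strand, 26.33 bits, sequence from 180081959 to 180082078) is intergenic, with the start of the transcription factor gene Gata5 at 12.7 kb and the nearest ZT12 site at 5.8 kb. The absent site chr5:134539532-134539970 (minus strand, 25.81 bits, 134539686 to 134539805) lies between genes, 310 kb from a ZT12 site. The absent site chr1:75650112-75650546 (plus strand, 25.75 bits, 75650261 to 75650380) is also intergenic, 93.7 kb from a ZT12 site. The shared sites are chr9:20635450-20635900 (minus strand, 26.65 bits, 20635574 to 20635693), chr5:136091800-136092349 (plus strand, 26.35 bits, 136092061 to 136092180) and chr7:25438712-25439100 (minus strand, 25.76 bits, 25438839 to 25438958), all intergenic.
absent, chromosome 2: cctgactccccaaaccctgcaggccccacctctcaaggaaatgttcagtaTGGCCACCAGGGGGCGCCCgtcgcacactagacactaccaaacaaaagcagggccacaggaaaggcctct
absent, chromosome 5: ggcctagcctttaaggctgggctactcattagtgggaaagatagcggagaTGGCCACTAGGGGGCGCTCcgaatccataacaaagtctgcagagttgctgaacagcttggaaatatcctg
absent, chromosome 1: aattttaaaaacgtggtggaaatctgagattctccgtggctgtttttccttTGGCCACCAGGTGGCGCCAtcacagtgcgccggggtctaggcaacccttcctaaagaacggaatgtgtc
shared, chromosome 9: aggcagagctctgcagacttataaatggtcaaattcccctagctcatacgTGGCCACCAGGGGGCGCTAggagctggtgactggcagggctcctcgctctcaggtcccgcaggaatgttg
shared, chromosome 5: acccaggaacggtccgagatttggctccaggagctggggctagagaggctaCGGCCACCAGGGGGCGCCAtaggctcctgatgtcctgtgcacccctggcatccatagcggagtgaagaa
shared, chromosome 7: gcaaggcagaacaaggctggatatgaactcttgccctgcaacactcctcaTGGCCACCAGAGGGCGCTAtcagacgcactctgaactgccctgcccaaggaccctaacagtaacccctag
Within these windows the absent sites held 3, 3 and 6 CpG dinucleotides and the shared sites 4, 5 and 2.

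The absent sites held several strong motifs less often than the shared ones. Counting matches that do not overlap each other, 41 absent sites held 2 or more at the stricter score (9.05%, 6.74 to 12.0%), against 386 shared sites (18.6%, 17.0 to 20.3%), a difference of -9.52 percentage points (-12.4 to -6.11). Over all autosomal ZT0 sites, most of them narrower, the share was 6.11%. Because the absent sites were narrower, the comparison was repeated by width. Under 450 bp the difference was -5.43 percentage points (-7.71 to -2.52). It was -6.03 from 450 to under 550 bp (-12.7 to 3.55) and -2.77 at 550 bp or more (-19.2 to 13.4), where the intervals include 0. Farther than 1 kb from transcription starts it was -9.86 points (-13.3 to -5.75).

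Where an absent site did hold 2 strong matches, they lay farther apart. The starts of the 2 best stricter matches were a median of 323 bp apart in the 41 absent sites (217 to 392 bp) and 122 bp apart in the 386 shared sites (92 to 150 bp). Among sites of 450 bp or more the medians were 373.5 bp for 30 absent sites (293 to 407 bp) and 163 bp for 285 shared sites (138 to 208 bp). Among narrower ones they were 217 bp for 11 absent sites and 68 bp for 101 shared sites, with intervals of 52 to 296 bp and 62 to 90 bp that overlap. Both matches pointed the same way in 20 of the 41 absent sites (48.8%, 34.3 to 63.5%) and in 65.5% of the shared sites (60.7 to 70.1%). They pointed towards each other in 13 absent sites (31.7%, 19.6 to 47.0%) and in 18.7% of the shared sites (15.1 to 22.8%). These comparisons of spacing and direction were added after the counts of matches had been seen.

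In most absent sites the best match lay near the middle. Its median distance from the midpoint was 38.0 bp, against 33.0 bp in the shared sites (difference 5.0 bp, -0.385 to 9.92). Within each width class it was farther off centre in the absent sites. The difference was 4.5 bp under 450 bp (1.3 to 10.8) and 14.0 bp from 450 to under 550 bp (0.876 to 30.1). In sites of 550 bp or more it was 172 bp for the absent and 114 bp for the shared sites (difference 58.0 bp, 3.31 to 97.3). By position, the interval of the difference included 0 within 1 kb of a start (7.5 bp, -1.84 to 20.8), in introns (3.25, -5.21 to 13.0) and between genes (5.0, -4.19 to 15.8). In other exons it included 0 as well, and the sign turned (-11.0 bp, -28.4 to 10.0).

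The sequence of the absent sites was poorer in G and C. In 200 bp around the midpoint, the median GC content was 54.0% (53.5 to 54.5%), with quartiles of 49.5 and 58.5%, and ranged from 29.0 to 80.5%. The shared sites had a median of 57.0% (56.5 to 57.5%), a difference of -3.0 percentage points (-3.71 to -2.29). All autosomal ZT0 sites had a median of 53.0%, so the absent sites lay close to the list as a whole and the shared sites above it. The difference had the same sign in each width class, at -2.0 points under 450 bp (-2.71 to -0.882), -4.0 from 450 to under 550 bp (-6.24 to -1.45) and -7.0 at 550 bp or more (-11.5 to -3.8). In this widest class fewer absent than shared sites held a motif match in the 200 bp, as given above. Over the whole site the difference in that class was -4.42 points (-7.14 to -0.305). By position it was -4.5 points within 1 kb of a transcription start (-6.3 to -0.469) and -2.0 in introns (-3.41 to -0.419) as well as between genes (-3.8 to -0.882). In 1000 bp around the midpoint the medians were 51.1% for the absent and 53.0% for the shared sites. The differences by position were less clear over longer stretches. In 1000 bp, the interval included 0 at starts (-1.25 points, -3.01 to 0.254), in introns (-1.4, -2.48 to 0.123) and in other exons (-0.95, -3.12 to 0.396), and by width at 550 bp or more (-3.9, -5.69 to 0.18). So it did over the whole site, at starts (-2.37, -4.97 to 0.25) and in introns (-0.685, -2.36 to 0.178).

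CpG dinucleotides were also fewer in the absent than in the shared sites. The median number in 200 bp was 4.0 (4.0 to 5.0) in the absent sites and 7.0 (6.0 to 7.0) in the shared sites. In 1000 bp the medians were 18 and 24 (difference -6.0, -7.41 to -5.0). The interval of the difference in 1000 bp included 0 at 550 bp or more (-11.0, -19.1 to 5.76). It also did within 1 kb of a start (-7.5, -19.2 to 0.262) and in other exons (-8.0, -15.8 to 0.544). All autosomal ZT0 sites had medians of 4.0 in 200 bp and 17 in 1000 bp, close to the absent sites. Farther than 1 kb from a start the medians of absent and shared sites were 4.0 and 5.0 in 200 bp, and 16 and 19 in 1000 bp. Over all absent and shared sites, the median ratio of observed to expected CpG was 0.297 (0.277 to 0.319) in the absent sites and 0.384 (0.372 to 0.396) in the shared sites. It was 0.29 over all autosomal ZT0 sites. The difference of -0.0872 between absent and shared sites (-0.111 to -0.0626) was smaller in introns (-0.023, -0.0474 to 0.00133). There, within 1 kb of a start (-0.0785, -0.159 to 0.00218), in other exons (-0.13, -0.201 to 0.0227) and at 550 bp or more (-0.0689, -0.182 to 0.118) the intervals included 0. CpG-rich sequence, here at least 55% GC and a ratio of at least 0.65 over 1000 bp, surrounded 50 absent sites (11.0%, 8.47 to 14.3%) and 395 shared sites (19%, 17.4 to 20.7%). The difference was -7.96 percentage points (-11.1 to -4.35), though -5.11 with an interval including 0 at 550 bp or more (-16.6 to 11.1), and the share over all autosomal ZT0 sites was 8.91%. Of the 347 absent sites farther than 1 kb from a start, 5 were CpG-rich (1.44%, 0.617 to 3.33%), against 63 of 1394 shared sites (4.52%, 3.55 to 5.74%). Within 1 kb of a start no difference was detectable in the CpG number in 200 bp (-2.5, -6.14 to 2.11) or in the CpG-rich share (-6.01 points, -15.7 to 4.2). In introns the intervals reached 0 as well, with a CpG number lower by 1 (-1.0 to 0.0) and CpG-rich shares of 1.48% and 1.58%.

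Inside the motif, CpG was less frequent at 4 of the 18 pairs of neighbouring positions of the best match and more frequent at none. All 18 pairs were compared after the first values had been seen. At positions 5 and 6, 58 absent sites had a CpG (12.8%, 10.0 to 16.2%), against 443 shared sites (21.3%, 19.6 to 23.1%) and 12.9% of all autosomal ZT0 sites. The difference of absent minus shared sites was -8.5 percentage points (-11.8 to -4.71). It was no longer detectable in introns, with 8.15% and 8.78% (-0.636 points, -5.27 to 5.65). Nor was it in other exons (-2.7, -14.6 to 14.0) or at 550 bp or more (-10.9, -20.1 to 4.24). At positions 15 and 16 it was -11.0 points (-16.0 to -5.94), from 207 absent sites (45.7%, 41.2 to 50.3%) and 1179 shared sites (56.7%, 54.6 to 58.8%), beside 45.1% of all autosomal ZT0 sites. At 550 bp or more this was -1.6 points (-18.4 to 13.7), and in other exons -3.97 points (-22.1 to 13.3). At positions 1 and 2 a CpG occurred in 39 absent sites (8.61%, 6.36 to 11.6%), 248 shared sites (11.9%, 10.6 to 13.4%) and 7.71% of the whole list (difference -3.32 points, -6.0 to -0.092). The interval of this difference included 0 in each of the 3 width classes, such as -1.36 under 450 bp (-4.63 to 2.58), and both within 1 kb of a start (-3.95, -10.1 to 4.39) and farther away (-1.98, -4.72 to 1.48). At positions 8 and 9 a CpG occurred in no absent site (0.0 to 0.841%), 31 shared sites (1.49%, 1.05 to 2.11%) and 0.628% of the whole list. The difference of absent minus shared sites there was -1.49 points (-2.11 to -0.543), and the interval of the absent sites includes the share of the whole list. For the other 14 pairs the interval included 0. No CpG at all occurred in the best match of 176 absent sites, while 277 had at least 1 (61.1%, 56.6 to 65.5%). The share with at least 1 was 72.4% in the shared sites (70.5 to 74.3%) and 58.3% over all autosomal ZT0 sites. Absent minus shared sites, the difference was -11.3 points (-16.2 to -6.49). It was not detectable within 1 kb of a start (-3.12, -11.5 to 3.06), in introns (-6.68, -16.1 to 2.86), in other exons (-10.2, -28.1 to 6.12) or at 550 bp or more (-5.51, -21.8 to 6.45). Between genes, a CpG at positions 15 and 16 was present in 41.8% of 177 absent and 53.2% of 824 shared sites (difference -11.3 points, -19.1 to -3.23). In introns the shares were 37.8% of 135 and 41.4% of 444 sites, and the interval of their difference included 0 (-3.66 points, -12.7 to 5.87). Whether any of these cytosines is methylated in the livers was not measured here.

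Fewer absent than shared sites lay at transcription starts. By the GENCODE annotation of mm9, the midpoints of 106 absent sites fell within 1 kb of an annotated start (23.4%, 19.7 to 27.5%), against 685 shared sites (32.9%, 31.0 to 35.0%). The difference was -9.55 percentage points (-13.7 to -4.98), and over all autosomal ZT0 sites the share was 20.3%. Introns held 135 absent sites (29.8%, 25.8 to 34.2%) and 21.4% of the shared sites (19.6 to 23.2%), a difference of 8.44 points (4.03 to 13.1). Over all autosomal ZT0 sites it was 30.9%, close to the absent sites. From 450 to under 550 bp (8.82 points, -0.813 to 20) and at 550 bp or more (11.5 points, -0.956 to 27.9) the intervals include 0. Between genes lay 177 absent sites (39.1%, 34.7 to 43.6%), 39.6% of the shared sites and 43.3% of all autosomal ZT0 sites. Other exons held 35 absent sites (7.73%, 5.61 to 10.6%), 6.06% of the shared sites and 5.52% of all autosomal ZT0 sites. The direction at transcription starts did not hold in every width class. It was -7.07 points under 450 bp (-11.9 to -1.72) and -17.0 from 450 to under 550 bp (-25.6 to -6.13), but 6.28 at 550 bp or more, with a wide interval (-9.32 to 23.0). The median distance to the nearest start was 6.65 kb for the absent and 4.19 kb for the shared sites (difference 2452 bp, 618 to 3714). Over all autosomal ZT0 sites it was longer, at 7749 bp. By width the difference was 1498 bp under 450 bp (-383 to 3716) and 2445 bp from 450 to under 550 bp (530 to 5996). At 550 bp or more the sign turned, with an interval including 0 (-1847 bp, -4822.5 to 4083).

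Absent and shared sites alike had weaker motifs at transcription starts than in introns or between genes. The median best score of the absent sites was 16.4 bits at starts (15.3 to 17.6), 19.7 bits in introns and 19.3 bits between genes. That of the shared sites was 17.9 bits (17.5 to 18.3), 19.7 bits and 19.6 bits. In other exons the medians were 18.9 bits for absent (17.4 to 20.3) and 18.7 bits for shared sites (17.6 to 19.8), with intervals that overlap those at starts. At starts the absent sites were lower (difference -1.58 bits, -2.73 to -0.254), but in 200 bp around the midpoint the interval included 0 (-1.92 bits, -3.76 to 0.28). Of the 45 absent sites without a stricter match, 21 lay within 1 kb of a start (46.7%, 32.9 to 60.9%), and their median GC content was 58.0%. Of the 408 with a stricter match, 85 did (20.8%, 17.2 to 25%), and their median GC content was 53.5%. The shared sites went the same way. Within 1 kb of a start, 80.2% of the absent and 87.0% of the shared sites held a stricter match, against 93.1% and 93.8% farther away.

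Other short motifs were searched on both strands in 300 bp around each midpoint. GGGCGG, bound by factors of the SP and KLF families, occurred in 87 absent sites (19.2%, 15.8 to 23.1%) and in 29.0% of the shared sites (27.0 to 30.9%), beside 18.9% of all autosomal ZT0 sites. The difference was -9.75 points (-13.7 to -5.43), and -5.4 points (-9.11 to -1.07) farther than 1 kb from a start. In introns (-1.5 points, -6.96 to 5.48) and within 1 kb of a start (-10.2 points, -19.8 to 0.056) its interval included 0, as it did from 450 to under 550 bp (-8.21, -17.2 to 2.79) and at 550 bp or more (-10.8, -21.6 to 5.26). GGGCGG can also fall inside a CTCF match, which was so in 10 absent (2.21%) and 3.8% of the shared sites. In windows 5 kb away it occurred in 6.62% for the absent and 5.92% for the shared sites. TGANTCA, the motif of AP-1, was found in 15 absent sites (3.31%, 2.02 to 5.39%), 5.82% of the shared sites (4.89 to 6.91%) and 6.45% of all autosomal ZT0 sites. The difference was -2.51 points (-4.2 to -0.232). It was about as large farther than 1 kb from a start, but with an interval including 0 (-2.56, -4.79 to 0.384). The interval also included 0 in each width class (-2.25, -4.46 to 0.676 under 450 bp). The motif was found in 11.7% of the windows 5 kb from absent sites and 7.6% of those 5 kb from shared sites. The E-box CACGTG, to which the clock activators bind, was present in 31 absent sites (6.84%, 4.86 to 9.55%), 6.06% of the shared sites and 5.03% of all autosomal ZT0 sites.

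No difference was detectable for the remaining motifs. AGGTCA, the unit to which nuclear receptors bind, occurred in 74 absent sites (16.3%), 15.1% of the shared and 16.7% of all autosomal ZT0 sites. TTANGTAA, a D-box, occurred in 3 absent sites (0.662%), 1.35% of the shared and 1.68% of all. GCCATNTT, read by YY1, occurred in 19 absent sites (4.19%), 3.51% of the shared and 4.72% of all. The ETS motif CCGGAAGT occurred in 6 absent sites (1.32%), 1.78% of the shared and 1.1% of all. For these 4 motifs and for the E-box, the interval of the difference included 0. A match describes letters only and does not show that a factor binds there.

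Most absent sites lie in unique sequence. Windows of 30 bp that occur more than once in the genome were found in 76 absent sites (16.8%, 13.6 to 20.5%) and 19.8% of the shared sites (18.1 to 21.5%). More than 50% of such windows were repeated in 6 absent sites (1.32%, 0.608 to 2.86%) and in 87 shared sites (4.18%, 3.41 to 5.13%), a difference of -2.86 points (-4.05 to -1.14). By width the interval included 0 in each class, at -1.27 points under 450 bp (-2.67 to 0.842), -2.27 from 450 to under 550 bp (-3.77 to 2.35) and -10.8 at 550 bp or more (-15.7 to 0.8). Copies can change how many reads are mapped to a site, and their part in the listing was not tested.

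The 10 widest absent sites were of several kinds. The widest, chr15:88658346-88659507, covers 1162 bp between genes, 6.8 kb from the nearest start and 47.3 kb from a ZT12 site. It holds 4 matches, of which 2 pass the stricter score, at 24.07 bits on the plus strand and at 18.61 bits on the minus strand. The next 5 all lie within 1 kb of a transcription start. They are chr14:57506117-57507089 (973 bp) in an intron of Zmym2, a zinc finger gene, chr19:16509366-16510315 (950 bp) at Gna14, which encodes a G protein subunit, chr7:29221477-29222344 (868 bp) at Gmfg, chr5:111269004-111269831 (828 bp) in Chek2, a kinase of the DNA damage checkpoint, and chr9:50336240-50337053 (814 bp) in Pts, an enzyme of tetrahydrobiopterin synthesis. Their best scores were 14.25, 15.18, 16.18, 14.29 and 21.51 bits, so 4 of the 5 were below the median of the absent sites. The other 4 lie away from starts. They are chr14:61913165-61913947 (783 bp) between genes, 15 kb from the start of Arl11, chr7:29757687-29758427 (741 bp) in an intron of Eif3k, a subunit of a translation initiation factor, chr12:104544595-104545321 (727 bp) between genes, 28.8 kb from the start of Asb2, and chr2:152189148-152189852 (705 bp) in an intron of Gm14164. Each of these 4 holds 2 matches past the stricter score, with best scores of 19.69, 24.54, 23.05 and 19.21 bits.

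The farthest and the nearest absent sites mark the range of distances to ZT12. The site farthest from any ZT12 site, chr6:106749921-106750352, lies 69 bp from a start of Crbn, the substrate receptor of a ubiquitin ligase, and 1607.8 kb from the nearest ZT12 site. Next came chr12:42213594-42213981 in an intron of Immp2l, a subunit of a mitochondrial peptidase (1229.4 kb), chr10:14424960-14425657 at the start of Vta1 (1140.2 kb), chr12:31800941-31801346 between genes (1028 kb) and chr15:87454479-87454873 in an intron of Fam19a5 (931 kb). The nearest was chr11:118600076-118600624 in an intron of Rbfox3, a neuronal splicing regulator, only 58 bp from a ZT12 site. The sites chr4:111559142-111559524 in an intron of Slc5a9, a sugar transporter, and chr3:65734155-65734541 between genes, 17.6 kb from the start of the cyclin gene Ccnl1, lay 347 and 406 bp from a ZT12 site. All 8 of these sites had a best match past the stricter score.

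At the ends of the motif score, the highest absent site was chr7:127813582-127813991 in an untranslated exon of Pdzd9, 23 bp from its start, with 26.41 bits and 165 kb from a ZT12 site. The fifth was chr7:150193887-150194270 in an intron of Tspan32, with 25.7 bits. The lowest was chr13:102538282-102538694, 316 bp from a start of Pik3r1, which encodes a regulatory subunit of phosphoinositide kinase. It scored 1.56 bits, had 66.5% GC and 16 CpG in 200 bp and lay 876 kb from a ZT12 site. This site, chr15:83587090-83587535 near Mpped1 (7.04 bits) and chr4:119011422-119011809 in an intron of Ccdc30 (7.7 bits) are the 3 absent sites without a match at a p of 0.0001. The next lowest were chr7:17204196-17204634, 4.07 kb from the start of Grlf1 (8.05 bits), and chr15:8395297-8395693, 1.03 kb from the start of Nipbl (8.65 bits).

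The best matches of these sites are shown with 10 bp on either side, in capitals for the match of 19 bp, read 5′ to 3′ on the strand of the match in mm9, to let the strong and the weak ones be compared. The order is the widest (plus strand, match from 88659329 to 88659347, 24.07 bits), that in Eif3k (plus strand, 29757872 to 29757890, 24.54 bits), the farthest from ZT12, at Crbn (minus strand, 106750142 to 106750160, 20.61 bits), the nearest to ZT12, in Rbfox3 (minus strand, 118600375 to 118600393, 21.92 bits), that at Gna14 (plus strand, 16509471 to 16509489, 15.18 bits), that near Nipbl (plus strand, 8395455 to 8395473, 8.65 bits) and the lowest, at Pik3r1 (minus strand, 102538355 to 102538373, 1.56 bits). The last is the best stretch of a site without a match. Of the 3 widest shared sites, the widest lies in an untranslated exon and is not shown. The others are chr12:112229623-112230900 (1278 bp, minus strand, 112230695 to 112230713, 19.46 bits) and chr11:95119906-95120936 (1031 bp, plus strand, 95120594 to 95120612, 18.96 bits), both between genes.
absent, chromosome 15, widest: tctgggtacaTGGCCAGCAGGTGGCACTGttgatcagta
absent, chromosome 7, Eif3k: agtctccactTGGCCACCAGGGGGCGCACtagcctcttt
absent, chromosome 6, Crbn: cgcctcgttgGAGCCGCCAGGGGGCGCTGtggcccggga
absent, chromosome 11, Rbfox3: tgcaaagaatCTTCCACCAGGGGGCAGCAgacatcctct
absent, chromosome 19, Gna14: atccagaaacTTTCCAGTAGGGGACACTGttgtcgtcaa
absent, chromosome 15, Nipbl: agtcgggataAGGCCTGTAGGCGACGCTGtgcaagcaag
absent, chromosome 13, Pik3r1: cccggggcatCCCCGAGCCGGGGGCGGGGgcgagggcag
shared, chromosome 12: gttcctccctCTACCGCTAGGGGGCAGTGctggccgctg
shared, chromosome 11: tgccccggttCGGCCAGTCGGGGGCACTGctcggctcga

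Along the chromosomes, the absent sites were scattered among other ZT0 sites. The nearest other ZT0 site was a median of 26.0 kb away, with quartiles of 7.16 and 72.9 kb, against 23.8 kb for the shared sites. It lay within 10 kb for 137 absent sites (30.2%) and 32.0% of the shared sites, and within 50 kb for 306 absent sites (67.5%) and 69.3% of the shared. It was itself absent at ZT12, whatever its width, for 196 absent sites (43.3%, 38.8 to 47.9%) and for 37.6% of the shared sites (35.6 to 39.7%). Of all autosomal ZT0 sites, 43.6% were absent at ZT12, close to the share for the absent sites. These shares are again a description of the contrast that chose them. No more than 2 absent sites followed each other without another ZT0 site between them, which happened 24 times and took in 48 sites. Absent sites made up 4.51% of the autosomal ZT0 sites, and whether such pairs exceed what that share gives was not tested. The closest pairs, singled out after their values were seen, lay 6704 and 7848 bp from the start of Fbxo2 (chr4:147541223-147541645 and chr4:147542386-147542769, 740 bp apart) and in an intron of Rbfox3 (chr11:118600076-118600624 and chr11:118601248-118601653, 623 bp apart). The matches of the Fbxo2 pair, of 22.15 and 21.43 bits, lie on the minus and the plus strand and point away from each other, and those of the Rbfox3 pair, of 21.92 and 17.41 bits, are both on the minus strand.

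The direction of the motif relative to the neighbours was like that of the whole list. Among pairs of neighbouring ZT0 sites with a match, at most 200 kb apart and with at least 1 absent site, 163 of 679 pointed towards each other (24.0%, 20.9 to 27.4%), 181 pointed away from each other (26.7%) and 335 pointed the same way (49.3%). Over all 7486 such pairs, the shares were 24.4%, 27.6% and 48.0%.

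All 19 autosomes held absent sites. Their share of the wide sites ranged from 10.1% on chromosome 18 (7 of 69, 5.0 to 19.5%) to 21.5% on chromosome 14 (20 of 93, 14.4 to 30.9%), with a median of 19.2%. The interval included the overall 17.9% for 18 chromosomes, and for chromosome 11 it lay from 9.17 to 17.6% (31 of 242 sites). The most absent sites were on chromosome 2, with 44, and their density was highest on chromosome 19, at 0.277 per Mb.

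No list of genes differed detectably from all protein-coding genes in having an absent site nearby, among 6 small lists. Over all 21281 protein-coding genes on the autosomes, 1153 had an absent site within 50 kb of a start (5.42%) and 4574 a wide shared site (21.5%). Of 18 core clock genes, none had an absent site within that distance (Wilson interval 0.0 to 17.6%), while 4 had a wide shared site (22.2%). A ZT0 site of any kind lay near 11 of them (61.1%), against 55.6% of all protein-coding genes. Of 24 genes of plasma proteins, 2 had an absent site (8.33%, 2.32 to 25.8%), and of 21 genes of liver transcription factors, 3 did (14.3%, 4.98 to 34.6%). The lists of 25 genes of liver metabolism, 9 of CTCF and cohesin and 17 imprinted genes had 1 each. All these intervals include the share over all protein-coding genes.

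Among the listed genes, the absent site closest to a start was chr15:8395297-8395693, 1.03 kb from that of Nipbl, whose product loads cohesin onto DNA. The site chr2:163360588-163361018 lies in an intron of Hnf4a, a nuclear receptor that maintains hepatocyte expression, 1.95 kb from a start, with 18.04 bits and 2.68 kb from a ZT12 site. An intron of Peg3, which is expressed from the paternal allele, holds chr7:6680062-6680483, 2.86 kb from a start and 191 kb from a ZT12 site. Between genes, 3.35 kb from the start of Hpx, the gene of the haem-binding protein hemopexin, lies chr7:112751780-112752187. The site chr19:44493359-44493877 lies 11.4 kb from the start of Scd1, a fatty acid desaturase, and had the highest score of these sites, at 24.34 bits. The site chr2:167500670-167501219 is 13.5 kb from the start of Cebpb, in an intron of Tmem189.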

How the data were processed

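ChIP-seq against CTCF was measured in livers of 2 biological replicates at ZT0 and 2 at ZT12. Per the study's methods, the authors aligned reads to mm9 (NCBIM37) using Bowtie2, dropped poorly mapped reads (samtools) and duplicates (Picard), and ran MACS2 at its default settings. The values they deposited are positions only (chromosome, start and end), in 1 list per time point named for both replicates and a FIMO motif search. How the replicates were combined is not given in the sources used here. Depth per sample is therefore unknown.

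Absent sites were found by overlap in scripts (pandas 2.3.3, pysam 0.24.0, Numba 0.67.0, NumPy 2.4.6 and SciPy 1.17.1 under Python 3.11.15), and starts are counted from 1. Sequence came from the NCBIM37 genome and genes from GENCODE for that build. The 19 bp matrix was started from the 12 bp most enriched in narrower ZT0 sites over sequence 5 kb away and refined over 3 rounds with a pseudocount of 1. Both strands were scanned. Differences of shares have Newcombe intervals and those of medians combine the intervals of both medians. The genome copy holds no repeat marking, so the planned repeat share was replaced by counts of 30 bp windows in the genome. The code was tested on simulated data with known motifs, overlaps and medians.

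The sites named were the 10 widest, the 5 with the highest and the 5 with the lowest score, the 5 farthest from and the 3 nearest to ZT12, those within 50 kb of a listed gene's start (up to 5 per list) and the longest runs. A site among these is not reported here. Sites, lists and comparisons were chosen with earlier results of these lists known, among them lower GC content and fewer starts in all sites listed at ZT0 alone. Splits by annotation class and the spacing of matches were added last. Alternatives covered the overlap, the width, the matrix, the windows and the distance to starts.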

Additional observations from a re-analysis of the deposited data

How the results depend on the processing

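The number of absent sites was 616 when 50% of both sites had to overlap, 448 with ZT12 sites up to 500 bp away counted as present, and 457 with chromosome X. With a minimum width of 450 bp it was 118, and with the median width of the ZT0 list as the minimum it was 1395. The share of wide sites absent was 24.3%, 17.7%, 18%, 11.4% and 27.7% in this order.

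Differences are absent minus shared sites. For the share with a motif match they were -2.84 points in 200 bp around the midpoint and 0.324 from 450 to under 550 bp, against -0.326. The median motif score of whole sites stayed within its interval in the width classes and with the ZT12 matrix, as did that of 200 bp over all widths. For GC content, the differences were -1.9 points in 1000 bp, -1.99 in the whole site, and -2.0, -4.0, -7.0 and -5.0 for sites under 450 bp, from 450 to under 550 bp, of 550 bp or more and of 450 bp or more. For sites within 1 kb of a start they were -17.0 from 450 to under 550 bp and, with the sign reversed, 6.28 at 550 bp or more. The cause was not tested, and this class holds 37 absent sites.

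Leaving out sites within 1 kb of a start was chosen after seeing the data. Farther away, the GC difference was -2.0 points and that of the CpG number -1.0. The CpG number differed by -4.0 in each class from 450 bp upwards. A CpG at positions 5 and 6 differed by -12.2 points from 450 to under 550 bp, and one at positions 15 and 16 by -1.6 at 550 bp or more. For 2 or more stricter matches, the differences were -5.43, -6.03, -2.77 and -5.55 points in the width classes as ordered above. Shares and differences were judged by the interval of the main value, and numbers of absent sites by a factor of 1.5. By these rules 32 values stayed, 25 moved and 1 reversed. The share with a motif match from 450 to under 550 bp (0.324 against -0.326) is among those that moved. Its sign turned as well, but the interval of the main value includes 0 (-1.6 to 0.238).

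No paired analysis was possible because each list pools both replicates, and leaving out a replicate was not possible either. A stricter peak threshold was not tried, as the lists hold no scores. Depth is unknown, and weak ZT12 signal below the caller's threshold does not appear in these lists.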
